A study of Mus musculus with 20 samples.

Results

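Ezh2 peaks were compared between SS and wild-type (WT) mouse embryonic fibroblasts, primary cells from C57BL/6 embryos at stage E13.5, at passage 4. Both cultures had been made quiescent in 0.1% serum for 72 h. The submitters' labels call the mutant genotype SS and do not spell it out. The members were all peaks on chromosomes 1 to 19 in the peak list of each genotype: 809627 of 840543 WT peaks and 1138246 of 1184135 SS peaks. These 1947873 peaks stand among 4480164 in the 10 lists of the series, which also hold pRb and H3K27me3 peaks from arrested and proliferating cells of both genotypes. A peak was called shared if at least 1 bp of it lay in a peak of the other Ezh2 list, and otherwise WT-only or SS-only. Each genotype had 1 Ezh2 library, so none of the differences could be set against the spread between replicates, and they carry no p-values. Cultures, libraries and genotypes cannot be told apart. Intervals are 95% Wilson intervals over peaks. They cover counting error only, and neighbouring peaks are not independent. The title of the series concerns silencing of endogenous retroelements by a tumour suppressor, and the Ezh2 comparison asks where this enzyme was called on chromatin in each genotype.

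Ezh2 is the catalytic subunit of Polycomb repressive complex 2, which methylates lysine 27 of histone H3. The trimethylated form, H3K27me3, marks silent chromatin, in fibroblasts typically at developmental genes that belong to other lineages. Quiescent cells are known to hold little Ezh2, because its gene is a target of E2F factors, which pRb restrains. H3K27me3 commonly forms broad domains, and the complex is usually most abundant at CpG islands within them. No sequence or gene name is given for a peak, because no mm9 genome or annotation was used, and positions are printed in mm9 as deposited, counted from 1.

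SS cells had more Ezh2 peaks than WT cells, and the difference widened toward longer and stronger peaks. Over all autosomal peaks the SS list was 1.41 times as long and covered 1.54 times the sequence, 121.5 Mb against 79.0 Mb, or 5.03% against 3.27% of the autosomal span. Among peaks of at least 300 bp there were 57922 in SS and 26813 in WT, 2.16 times as many. Of at least 500 bp there were 8153 and 2898, 2.81 times as many, and of at least 1000 bp 109 and 24. The same held for the authors' p-value: at a -log10 p of at least 6 the SS list held 3.05 times as many peaks (192139 against 62986), and at 10 or more 6.66 times as many (10967 against 1647). At 15 or more the ratio was 5.23 (481 against 92), and at 20 or more it came back to 1.32, with 62 SS and 47 WT peaks. The excess in SS was alike over the chromosomes, from 1.38 on chromosome 15 to 1.44 on chromosome 7.

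Most Ezh2 peaks in either list were as short as the list allowed, and for part of these the number of fragments behind them could be worked out. The shortest length was 50 bp in WT and 51 bp in SS, and 61.5% and 58.0% of the peaks had it. The fold enrichment of these peaks fell on evenly spaced steps. The commonest value was 2.97 in WT (129403 peaks) and 2.96 in SS (139095 peaks), and the next steps lay at 1.20 and 1.40 times that value. These are the ratios expected of a pileup of 4, 5 and 6 fragments after 1 is added to the pileup and to a background of 0.684 in WT and 0.688 in SS. For peaks on such steps the deposited p-value equalled the Poisson probability of more fragments than the pileup over that background, within 0.01 on the -log10 scale, in 99.7% of 222177 WT peaks and 99.8% of 315816 SS peaks. Peaks on steps made up 44.6% and 47.9% of the shortest ones, and those with a matching p-value 27.4% and 27.7% of the whole lists, a tolerance of 0.002% of the fold being allowed. Their pileups ran from 4 to 14 fragments in WT and from 4 to 18 in SS, and 84.0% and 69.8% of them held 4 or 5.

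At nearly equal background the SS list held more peaks at every pileup, and the ratio grew with each fragment up to 12. At 4 fragments there were 139104 SS and 130110 WT peaks, a ratio of 1.07 (1.06 to 1.08). At 6 fragments the numbers were 45501 and 22642, a ratio of 2.01, and at 8 fragments 13155 and 2985, a ratio of 4.41. At 10 fragments the SS list held 3052 peaks and the WT list 295, which is 10.3 times as many (9.18 to 11.7). At 12 fragments the ratio was 27.3, from 546 and 20 peaks, and beyond that the WT list held too few peaks to follow it (12 at 13 fragments and 1 at 14). The number of reads of either library is not known from the lists, and its part in this difference was not tested.

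**Figure D1:**
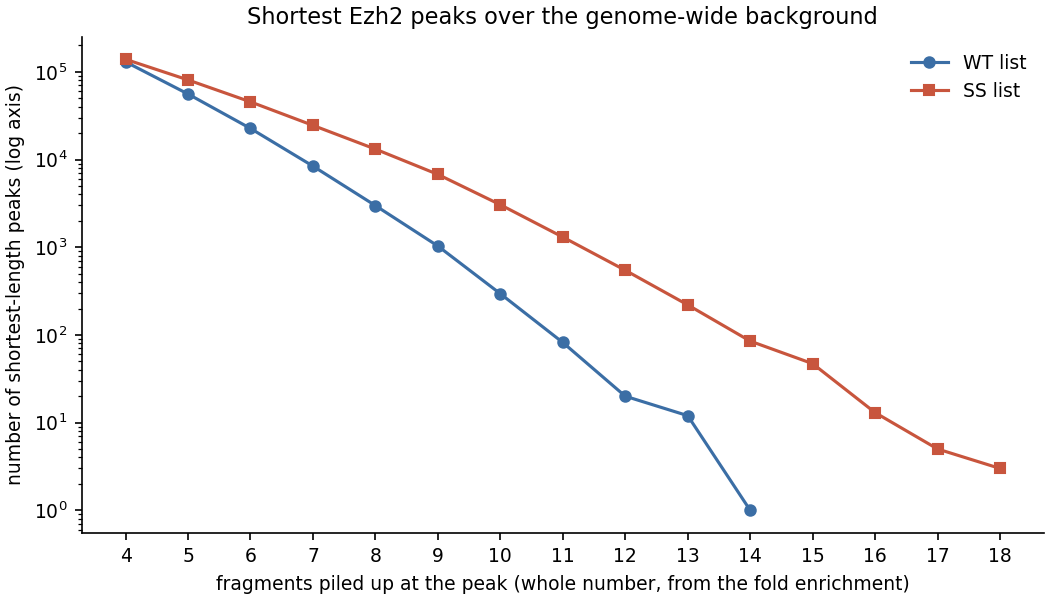
Number of shortest-length Ezh2 peaks (log axis) against the whole number of fragments piled up, for the peaks whose fold enrichment falls on a step over the genome-wide background, 1 library per genotype. The lists start together at 4 fragments, with 130110 WT and 139104 SS peaks, and part to 295 and 3052 at 10 fragments.

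Few Ezh2 peaks lay in the same place in both genotypes. Of the WT peaks, 92842 were shared (11.5%, 11.4 to 11.5) and 716785 were WT-only. Of the SS peaks, 92780 were shared (8.15%, 8.10 to 8.20) and 1045466 were SS-only. A share of this kind rises with peak length by itself, so the middle base of each peak was also tested for lying in a peak of the other list, a measure that does not depend on the length of the peak asked about. The middle of 6.15% of WT peaks lay in an SS peak, whereas SS peaks covered 5.03% of the autosomal span, 1.22 times. The middle of 3.98% of SS peaks lay in a WT peak against 3.27% covered, also 1.22 times. The autosomal span ran from the first to the last peak of any list on each chromosome. Sequence where no peak could be called was not taken out of it, so the covered shares may be too low. Its part in these ratios was not tested. Shared shares were alike over the chromosomes, from 11.0% to 12.0% for WT and from 7.82% to 8.50% for SS.

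Shared peaks were longer than peaks of 1 genotype only, by a margin that grew along the length range and that depended on the rule for sharing. The median length was 90 bp for shared and 50 bp for WT-only peaks in the WT list, and 115 bp and 51 bp for shared and SS-only peaks in the SS list. When peaks within 100 bp also counted as shared, the WT medians were equal (a ratio of 1), and under a reciprocal overlap of 50% the SS medians were. In the WT list 8.23% of shared and 2.67% of WT-only peaks reached 300 bp. In the SS list 12.7% of shared and 4.41% of SS-only peaks did. By strength the classes were nearly alike. The median fold enrichment was 3.46 in both WT classes, and 3.63 for shared and 3.56 for SS-only peaks. The median -log10 q was 1.83 for shared and 1.81 for WT-only peaks, and 2.40 for shared and 2.26 for SS-only peaks. Among shortest peaks on a fold step, the mean pileup was 4.67 fragments for shared and 4.66 for WT-only peaks, and 5.20 for shared and 5.16 for SS-only peaks.

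**Figure D2:**
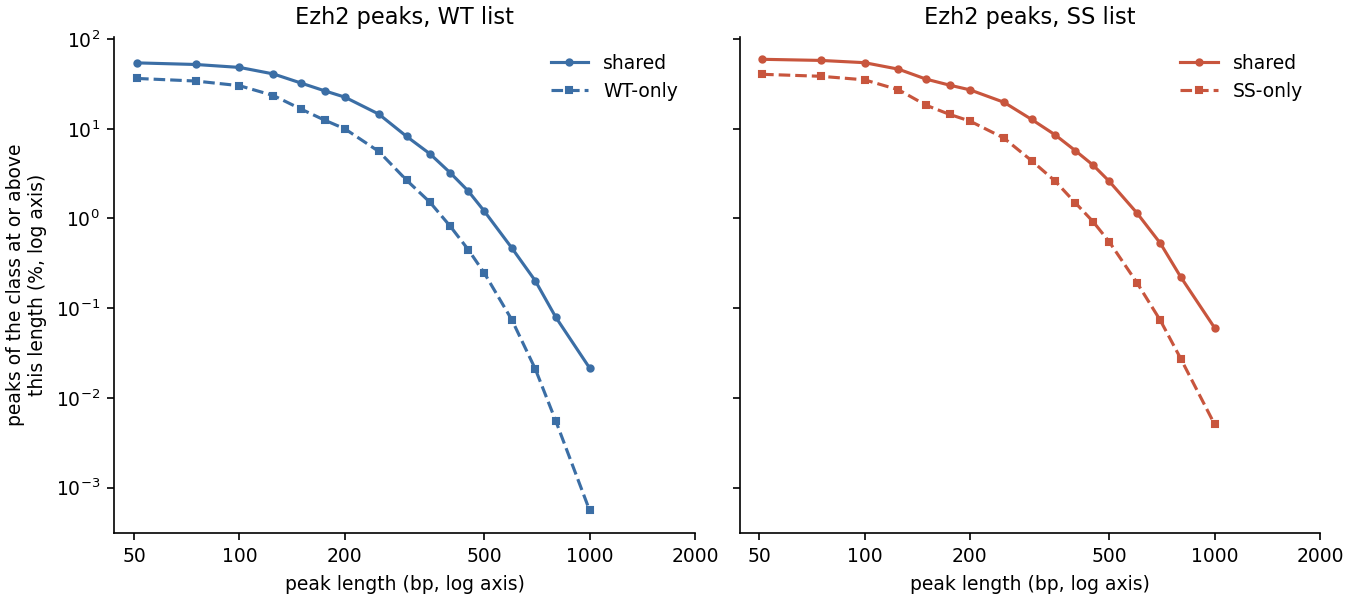
Share of the shared and the genotype-only Ezh2 peaks (percent, log axis) that reach a given length (bp, log axis), in the WT list on the left and the SS list on the right, 1 library each. Shared peaks lie above at every length, and at 300 bp the shares are 8.23% and 2.67% in WT and 12.7% and 4.41% in SS.

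The shared share rose steadily with length but not with fold enrichment until the far end of the range. The middle-base measure rose slightly with fold as well. Among WT peaks of up to 51 bp 8.52% were shared, among those of 300 to 499 bp 27.3%, and among those of 500 to 999 bp 38.4%. Of the 24 WT peaks of at least 1000 bp, 20 were shared. The SS values were 5.70%, 18.9%, 29.3% and 56 of 109. By the middle-base measure the rise was smaller. In WT it went from 1.17 times the covered share for peaks of up to 51 bp to 1.54 times at 500 to 999 bp, and in SS from 1.16 to 1.65 times. By fold enrichment, WT peaks with a fold between 2 and 8 were shared in 10.1% to 12.2% of cases and SS peaks in 6.50% to 8.65%. These shares had no order from weak to strong. The middle-base measure did rise, in WT from 1.17 times the covered share at a fold of 2 to 3 to 1.35 times at 6 to 8. In SS it went from 1.13 to 1.30 times over the same folds. Between 10 and 15, 12 of 18 WT peaks and 15 of 93 SS peaks were shared. From 15 upward all 25 WT peaks and all 20 SS peaks were. When each list was cut by -log10 q into 10 equal groups, the strongest group was shared in 11.3% (WT) and 8.02% (SS). This was within the range of all 10, from 9.52% to 12.9% and from 6.23% to 9.88%. By the middle-base measure the strongest group was the highest of the 10, at 6.65% in WT and 4.31% in SS. The weakest group was the lowest by that measure, at 5.66% and 3.62%. The strongest 100 peaks stood apart, with 59 of the WT and 50 of the SS peaks shared, while ranks 101 to 500 gave 15.0% and 10.8%.

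Peaks of fold below 2, 74 in WT and 58 in SS, were also shared often, 66.2% (54.9 to 76.0) and 55.2% (42.5 to 67.3). A low fold with a passing p-value needs a high local background, and the median length of these peaks was 210.5 bp in WT and 199 bp in SS, against 50 and 51 bp in the whole lists. The extreme case was the peak of highest -log10 q in both lists, on chromosome 6 at chr6:103599055-103599265 in WT and chr6:103599063-103599266 in SS. Its fold was 1.68 in WT and 1.67 in SS, at a -log10 q of 864.7 and 897.3.

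**Figure D3:**
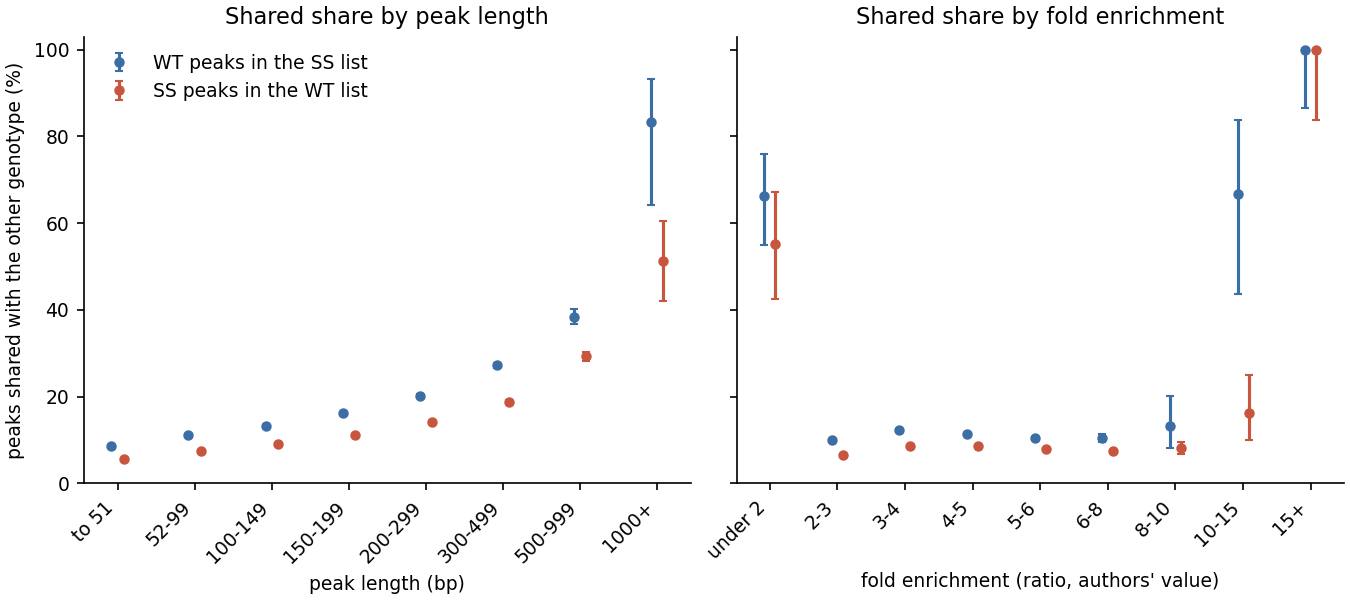
Share of Ezh2 peaks (percent) that lie in a peak of the other genotype, by peak length on the left and by the authors' fold enrichment on the right. Bars are 95% Wilson intervals over the peaks of 1 library per genotype. The share climbs with length from 8.52% to 38.4% at 500 to 999 bp in WT, runs between 10.1% and 13.1% in WT and between 6.50% and 8.65% in SS at folds of 2 to 10, and reaches 25 of 25 and 20 of 20 at folds of 15 or more.

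Where a WT and an SS peak did overlap, the pair was mostly 1 peak against 1 peak but seldom the same interval. There were 93150 overlapping pairs, of which 98.6% joined a single peak of either list. The median overlap was 50 bp and the median distance between the middles 52 bp. In 19.4% of pairs the overlap reached 50% of both peaks, and 2 pairs had identical ends. The SS peak was the longer in 61.9% of pairs. The overlapping sequence summed to 5.05 Mb, or 6.39% of the WT and 4.15% of the SS covered length. A stronger WT peak did not come with a stronger SS partner over most of the range. SS partners had a median fold of 3.61 where the WT peak had a fold of 2 to 3, and 3.68 where it had a fold of 6 to 8. At a WT fold of 15 or more the 25 SS partners had a median fold of 20.7.

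A small set of very strong sites was common to both genotypes. A fold of at least 10, a limit chosen after the values were seen, was reached by 43 WT and 113 SS peaks, and 37 and 35 of these were shared. Joined into pairs, 48 sites had a fold of at least 10 in 1 list or both. The WT peak had the higher fold at 31 sites and the SS peak at 17. In 24 pairs both peaks reached 10, and WT was higher in 18 of those. On chromosome 14 at chr14:104736165-104736252 the WT fold was 75.8, and the SS fold was 46.6 at chr14:104736163-104736302. On chromosome 5 both lists had the interval chr5:114623108-114623176, with a fold of 72.8 in WT and 47.4 in SS. On chromosome 17 the WT peak at chr17:56339427-56339518 had a fold of 54.8 and the SS peak at chr17:56339426-56339516 one of 35.9. These 3 sites, the highest by WT fold, were stronger in WT. By SS fold, the sites next after those on chromosomes 5 and 14 were stronger in SS. On chromosome 7 the fold was 8.06 at chr7:39310536-39310913 in WT and 42.3 at chr7:39310398-39310625 in SS. At chr1:12634846-12634934 the SS fold was 41.2 against 33.1 in WT, and at chr6:142886222-142886322 it was 40.6 against 20.3. The fold is the authors' value for each peak within its list, and a difference in fold between lists has no replicate behind it.

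The strongest sites recurred in lists of other antibodies. In the 24 pairs with both folds at 10 or more, peak lengths ran from 61 to 429 bp, with medians of 91 bp in WT and 93.5 bp in SS against 50 and 51 bp in the whole lists, and the median distance between middles was 22.5 bp. Of the 25 WT peaks of fold 15 or more, all 25 overlapped an arrested SS H3K27me3 peak, as did 8.40% of all WT Ezh2 peaks. There 23 overlapped an arrested WT H3K27me3 peak (11.3% of all), 22 a proliferating WT and 19 a proliferating SS H3K27me3 peak (11.3% and 13.8% of all). The arrested WT pRb list had a peak at 12 of them and the arrested SS pRb list at 20 (5.23% and 8.97% of all). Proliferating pRb peaks overlapped 0 of the 25, which allows a share of up to 12.0%, and 0.868% and 1.13% of all. Of the 25 peaks, 18 had a peak in 5 or more of the 8 other lists, against 0.334% of all WT peaks. Of the 48 sites, 19 had a peak in 5 or more of the 8 other lists, 24 in 1 to 4, and 5 in none. Whether these sites mark Ezh2 or arise in another way was not tested.

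**Figure D4:**
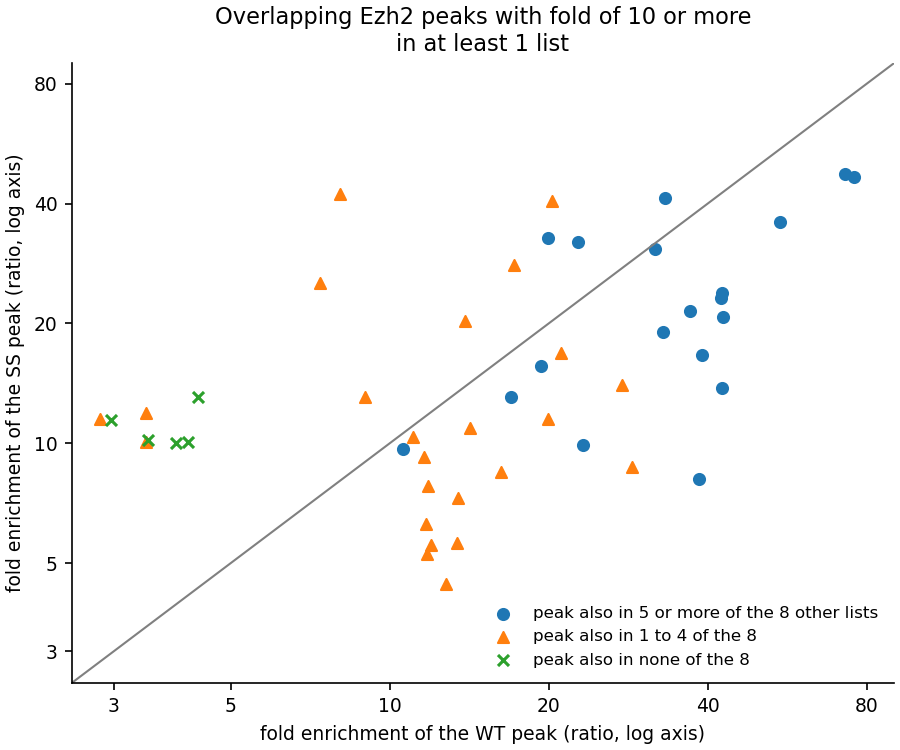
Fold enrichment of the WT peak and of the overlapping SS peak (ratios, both axes log) for the 48 overlapping pairs with a fold of at least 10 in 1 list or both, marked by how many of the 8 pRb and H3K27me3 lists also had a peak there. The line marks equal folds; 31 pairs lie on the WT side, and the 2 strongest, at WT folds of 75.8 and 72.8, have SS folds of 46.6 and 47.4.

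Strong peaks of 1 genotype only reached lower folds. The highest fold among WT-only peaks was 14.4 and among SS-only peaks 12.7. There were 6 WT-only peaks of fold 10 or more, and all 6 overlapped none of the 8 other lists, as did 63.8% of all WT-only peaks. Of the 78 SS-only peaks of fold 10 or more, 59 (75.6%) overlapped none of the 8 lists, as did 63.4% of all SS-only peaks, 19 overlapped 1 to 4, and 0 overlapped 5 or more, against 0.342% of all SS-only peaks. Of the 35 shared SS peaks of fold 10 or more, 4 overlapped none and 16 overlapped 5 or more. The strongest WT-only peak by -log10 q was at chr11:30034980-30035029, with a fold of 14.4, and its nearest SS peak was 130 bp away. It was followed by chr2:16604707-16604765 with a fold of 13.0 and chr15:89899358-89899407 with 13.1. Among SS-only peaks the highest -log10 q, 26.0, was at chr9:110183781-110183846, where the fold was 4.07, the nearest WT peak lay 3112 bp away and all 4 H3K27me3 lists had a peak. The next were chr11:99586461-99586516, with a fold of 12.6 and peaks in 2 H3K27me3 lists, and chr11:17277998-17278048, with a fold of 12.7 and no peak in the other 8 lists.

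The longest Ezh2 peak of both lists was the same region of chromosome 17. It spanned 5160 bp in WT (chr17:39979963-39985122, fold 1.72) and 5818 bp in SS (chr17:39979950-39985767, fold 2.33), and all 4 H3K27me3 lists and the arrested WT pRb list had a peak there. The next longest shared WT peaks, 2084 bp at chr8:19905587-19907670 and 1437 bp at chr8:20032427-20033863, faced SS peaks of only 464 and 263 bp. In SS the next were 1870 bp at chr4:146902150-146904019 and 1491 bp at chr11:3071378-3072868. The longest WT-only peak, 1115 bp at chr8:19898414-19899528, lay 886 bp from an SS peak. The longest SS-only peak had 1539 bp (chr1:145381000-145382538), and the next longest both had 1409 bp, at chr13:12141944-12143352 and chr14:24428979-24430387.

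Ezh2 peaks were densely placed, at 335 per Mb in WT and 471 per Mb in SS cells. Another peak of the same list was found within 1 kb of 47.9% of WT and 61.3% of SS peaks. This share rises with density alone, so that it does not by itself show clustering. It was nearly the same for shared as for genotype-only peaks, 49.98% against 47.6% in WT and 63.3% against 61.2% in SS. WT-only peaks were seldom far from SS peaks: the median distance to the nearest one was 580 bp, and 69.2% had one within 1 kb. For SS-only peaks the median distance to the nearest WT peak was 869 bp. Peaks joined over gaps of at most 1 kb gave 583040 clusters in WT, 72.3% of them a single peak, and 704077 in SS, 62.5% of them a single peak. With SS cut to its strongest peaks, as many as WT had, the share with a neighbour within 1 kb was 48.3%.

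Sharing rose with the size of the cluster. In WT 11.0% of lone peaks were shared, 14.7% of peaks in clusters of 6 to 9, and 41.6% (35.2 to 48.4) of the 209 peaks in the 19 clusters of 10 or more. In SS the shares were 7.74%, 9.47% and 16.8% (15.4 to 18.4), the last over 2494 peaks in 226 clusters. Peaks in clusters of 10 or more were also longer, with medians of 130 bp in WT and 72.5 bp in SS, against 50 and 51 bp for lone peaks. By the middle-base measure the WT values were 5.88%, 8.31% and 24.4%, and the SS values 3.77%, 4.75% and 8.58%. A cluster marks a dense place, and the WT and SS peak numbers per 100 kb bin rose together (correlation 0.485). The other list may thus also be dense around clusters, and the part of local density in the rise was not tested. The 3 largest WT clusters lay close to each other on chromosome 8, with 16 peaks at chr8:19927683-19938829, 15 at chr8:19742421-19754703 and 14 at chr8:19953350-19963031, of which 12, 13 and 11 were shared. The largest SS clusters held 20 peaks at chr3:25420275-25435471, 20 at chr11:3051528-3068300 and 18 at chr16:3263224-3273920, of which 11, 12 and 7 were shared.

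Counted in the 24020 autosomal bins of 100 kb, the lists had 33.7 WT and 47.4 SS peaks per bin on average. Covered length was higher in SS in 94.2% of the bins in which either list had a peak, and the median ratio per bin was 1.54. SS covered at least 2 times the WT length in 18.0% of the bins (4327 of 24013) and WT at least 2 times the SS length in 0.0583% (14 bins). With SS cut to its strongest peaks, as many as WT had, these numbers were 996 and 184 bins. By number of peaks in place of covered length, 1461 bins had at least 2 times as many in SS. The densest bins were dense in both lists. A larger part of their peaks was shared than over the autosomes, but both lists also covered more sequence there, which raises sharing by itself. Its part was not tested. The bin chr8:19900001-20000000 had 82 WT and 87 SS peaks, 56 shared in either, and chr13:12900001-13000000 had 82 and 90, of which 32 and 30 were shared. At chr5:14900001-15000000 there were 77 and 72, with 46 shared in either. The densest SS bin, chr7:46500001-46600000, had 94 SS and 57 WT peaks, of which 18 and 20 were shared. SS peaks covered 21.1% of that bin and WT peaks 8.21%. Shared peaks, taken as the mean of both lists, outnumbered the WT-only and SS-only peaks together in 1 bin, which held 1 peak in either list.

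**Figure D5:**
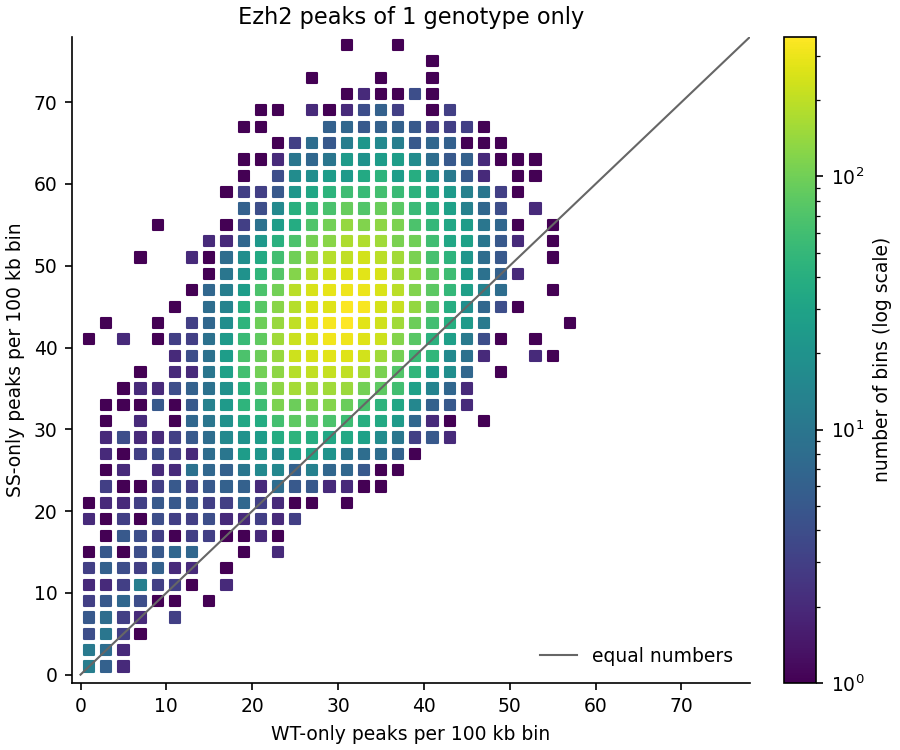
Number of autosomal 100 kb bins (colour, log scale) by their WT-only and SS-only Ezh2 peaks, grouped in steps of 2 peaks. Most bins lie above the line of equal numbers, with means of 29.8 WT-only and 43.5 SS-only peaks, and a few at the left have many SS-only and few WT-only peaks.

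Some long stretches held SS peaks and few or no WT peaks, and both lists were often thin there. Reading along a chromosome, the longest run of SS-only peaks with no WT peak between them had 42 members over 104 kb at chr4:111908628-112012887. It was followed by 40 over 394 kb at chr7:22165981-22560327 and 26 over 194 kb at chr7:22717928-22912158. SS peaks were themselves sparse in the runs on chromosome 7, with 10.1 and 13.4 per 100 kb against 47.4 over all bins, and less so in the run on chromosome 4, with 40.3. The longest WT-only runs had 13 members, over 33.0 kb at chr1:188413802-188446809 and over 17.1 kb at chr13:20213728-20230855. The mean run was 2.12 peaks for SS-only and 1.51 for WT-only, from lists of unequal length. Within the longest SS-only run the arrested pRb lists had 10 WT and 25 SS peaks and the arrested H3K27me3 lists 4 WT and 1 SS peaks. The run of 40 held 25 and 43 arrested pRb peaks, 24 arrested WT H3K27me3 peaks and none in the other 3 H3K27me3 lists. Per 100 kb, all these counts in both runs were below the means over all bins. Those means were 16.7 (WT) and 25.7 (SS) for arrested pRb and 26.3 (WT) and 8.69 (SS) for arrested H3K27me3.

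Bins were also joined in which SS had at least 3 times as many peaks as WT and at least 10, a rule chosen after the values were seen. There were 110 such bins in 58 stretches, and 0 with the genotypes exchanged, from lists of unequal length. Each of the 3 named SS-only runs touched 2 of these bins. The longest stretch covered 20 bins, chr5:94200001-96200000, with 99 WT and 542 SS peaks, or 4.95 and 27.1 per bin against 33.7 and 47.4 over all bins. Both lists were thus below their own mean there, WT by far the more. In the same stretch the arrested pRb lists had 17.6 (WT) and 11.9 (SS) peaks per bin, against 16.7 and 25.7 over all bins. The proliferating pRb lists were above their mean there, with 9.1 (WT) and 8.05 (SS) peaks per bin against 3.19 and 4.36. The arrested WT H3K27me3 list had 13.3, against 26.3. The arrested SS and both proliferating H3K27me3 lists had 0.20, 0.050 and 0.050 per bin, against 8.69, 5.45 and 6.94. The next stretches were chr7:33200001-33900000, with 52 WT and 225 SS peaks, chr4:111700001-112300000, with 32 and 199, and chr4:112700001-113300000, with 41 and 205. There too the arrested SS H3K27me3 list was nearly empty, with 0, 6 and 0 peaks, and the arrested WT list had 77, 36 and 56, or 11.0, 6.0 and 9.33 per bin, below its own mean. How many reads can be placed uniquely in these stretches is not given by the lists, and its part was not tested. Single bins with the largest excess of SS-only peaks were chr17:40200001-40300000 (56 SS and 10 WT peaks), chr16:39400001-39500000 (72 and 24) and chr13:11600001-11700000 (71 and 26). For WT-only peaks the excess was smaller, led by chr7:101000001-101100000 with 48 WT and 32 SS peaks.

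Ezh2 peaks coincided with H3K27me3 and pRb peaks slightly above the share of the autosomes those lists cover, and shared Ezh2 peaks did so slightly more than genotype-only ones. Of the shared WT peaks 9.16% had their middle in an arrested WT H3K27me3 peak, of the WT-only peaks 8.37%, and that list covers 7.65% of the autosomal span. With the arrested SS H3K27me3 list, which covers 6.60%, the values were 7.82% for shared and 7.24% for SS-only peaks. For arrested pRb of the same genotype they were 3.81% and 3.42% in WT (3.14% covered) and 6.84% and 6.09% in SS (5.58% covered). Against the covered share, SS-only peaks stood at 1.09 to 1.10 times over all 8 lists, and WT-only peaks at 1.06 to 1.11 times. The excess was thus much the same for either antibody. Sequence where no peak could be called stayed in the span, and its part was not tested. Over the 4 H3K27me3 lists the shared share was 1.05 to 1.09 times the genotype-only share, and over the 4 pRb lists 1.11 to 1.30 times for WT and 1.12 to 1.21 times for SS. Among shortest peaks alone, which removes the difference in length, the WT ratio with its own arrested H3K27me3 list was 1.08 and the SS ratio 1.06. Over the 4 H3K27me3 lists these ratios ran from 1.02 to 1.08 for WT and from 1.05 to 1.08 for SS. For WT with its own proliferating H3K27me3 list the intervals overlapped, 10.0 to 10.6% for shared and 9.99 to 10.2% for WT-only peaks. Over the 4 pRb lists the ratios were lower among shortest peaks, 1.05 to 1.16 for WT and 1.04 to 1.11 for SS. For WT with its own arrested pRb list the intervals overlapped, 3.35 to 3.70% for shared and 3.31 to 3.41% for WT-only peaks. In proliferating H3K27me3 peaks over 10 kb, the broad domains of the mark, the order was turned: 2.46% of shared (2.36 to 2.56) and 2.64% of WT-only peaks (2.60 to 2.68) had their middle in those of the WT list, which cover 2.57%. For SS cells and their own list the shares were 3.04% of shared and 3.19% of SS-only peaks, against 3.08% covered.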

How the data were processed

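Per the labels' protocols, formaldehyde and a long-arm cross-linker were used before sonication and immunoprecipitation. The submitters' processing notes name mm9 as the build and MACS2, Bowtie2, bedtools and HOMER as tools. The sources used here give neither versions nor settings nor the control. Each deposited Ezh2 list has the layout of MACS2 broad peaks. Its columns are the authors' score, the fold enrichment as a ratio, the -log10 p and the -log10 q. The lowest -log10 q was 1.01 in either list, so the lists hold weak calls, and the medians were 1.81 in WT and 2.27 in SS. The score equalled 10 times the -log10 q, cut to a whole number, in all but 16 WT and 23 SS rows, per the deposited values. The deposited pRb lists give a score only. All such values are the authors', and depth in reads is unknown, so that none of the shares could be corrected for it. X and Y were left out, as were the 10 input libraries.

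Length is end minus start. Overlap, distances, clusters (gaps up to 1 kb), runs and 100 kb bins were computed with Python 3.11.15, numpy 2.4.6, pandas 2.3.3 and scipy 1.17.1. The overlap and cluster steps were tested on simulated lists and against bedtools. Named were, for each class, the 3 peaks of highest -log10 q and the 3 longest, the 5 bins with most peaks and largest excess, of which the leading ones are given, and the 3 largest clusters and runs. The members, lists and rules were chosen with earlier results of these data known. Alternatives were another overlap rule, cutoffs on -log10 q or -log10 p, the part of each list at or above its median -log10 q, equal list lengths, peaks above the shortest length, merging, all chromosomes, other gaps, proliferating lists and peak number per bin.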

Additional observations from a re-analysis of the deposited data

Results flagged for a closer look

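The comparisons left out the sex chromosomes, on which both lists also held peaks. On X there were 30353 WT and 45049 SS peaks, 1.48 times as many in SS, and 7.01% of the WT and 4.69% of the SS peaks were shared, less than the 11.5% and 8.15% on the autosomes. On Y there were 563 WT and 840 SS peaks, 1.49 times as many in SS, with 25.0% and 15.8% shared. The input libraries were not analysed here. The differences from the autosomes were not tested.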

How the results depend on the processing

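No paired analysis was possible because each genotype had 1 Ezh2 library, which also leaves no replicate to leave out. The alternatives gave 156 values for 18 results. SS had more peaks and more covered length in each of them, except that equal list lengths set the number ratio to 1, where the covered length ratio was 1.16. Among peaks of at least the common cutoff on -log10 q, the upper quartile of the SS list (3.14), the ratios were 4.07 by number and 5.55 by covered length, the shared shares 3.08% of WT and 0.757% of SS peaks, and the shares with a neighbour within 1 kb 5.15% and 20.2%. At a -log10 p of at least 5, added after the data were seen because the p-value does not depend on list length, the same values were 2.35, 2.86, 3.91%, 1.66%, 11.6% and 26.0%. For peaks longer than the shortest length they were 1.53, 1.62, 9.26%, 6.03%, 22.0% and 32.2%. In the part of each list at or above its median -log10 q the covered length ratio was 1.70, the shared shares 6.39% and 4.54% and the neighbour shares 27.1% and 36.5%. Equal list lengths gave shared shares of 8.57% and 8.55% and an SS neighbour share of 48.3%. Merging peaks within 1 kb gave ratios of 1.21 and 1.76 and shared shares of 28.1% and 22.8%. A reciprocal overlap of 50% left 2.23% of WT and 1.58% of SS peaks shared, and a distance of up to 100 bp raised the shares to 21.5% and 15.3%. With all chromosomes they were 11.3% and 8.02%, and the neighbour shares 47.3% and 60.6%. A gap of 500 bp gave 22.3% and 30.7%, and 5 kb 97.1% and 99.3%.

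The slight excess of shared over SS-only peaks in strength was turned by some settings. The ratio of their median folds was 0.994 with equal lengths, 0.996 in the upper part of each list and 0.993 at a -log10 p of 5, and that of the median -log10 q 0.994, 0.991 and 0.998. For WT-only peaks the ratio of the median -log10 q was 1.00 in the upper part, just below equality. The ratio of median lengths, shared over genotype-only, ran from 1 (peaks within 100 bp in WT, reciprocal overlap in SS) to 7.26 (merged peaks in SS). The number of bins where SS had at least 2 times the WT covered length ran from 996 with equal list lengths to 22127 at the common -log10 q cutoff. The number where WT had at least 2 times the SS value ran from 9, by peak number, to 184, by covered length with equal list lengths. The causes were not tested. Each cutoff also leaves fewer peaks, and the part of that smaller number was not set apart from strength. Depth limits all of this: the reads behind the lists are unknown, 1 library stands for each genotype, and weak peaks of 4 or 5 fragments make up most of the shortest ones on a fold step.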
